A study of Mus musculus with 36 samples.

Results

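Growth hormone (GH) from the pituitary and insulin-like growth factor 1 (IGF1) from the liver form an endocrine axis that sets body growth and part of hepatic lipid and glucose handling. The transcripts described here are the 10 genes Ghr, Igf1, Igfals, Igfbp1, Igfbp2, Igfbp3, Socs2, Cish, Stat5a and Stat5b. They were found by matching their symbols in the gene list that all libraries share, and all 10 were present among 20098 genes. GH binds its receptor GHR on hepatocytes, and the kinase JAK2 on the receptor then phosphorylates the transcription factors STAT5A and STAT5B. STAT5 raises transcription of Igf1, of Igfals, and of Socs2 and Cish, whose products damp the receptor's signal. Circulating IGF1 is carried by binding proteins, mainly in a complex with IGFBP3 and the acid-labile subunit encoded by Igfals, while IGFBP1 is a short-lived carrier whose hepatic transcription insulin represses.

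The study asked how a metabolic disorder alters the response of mice to real-ambient particulate matter (PM), and mRNA was sequenced from lung and liver. All mice were wild-type male C57BL/6J, killed at about 18 weeks of age. Normal-diet (ND) mice ate a standard AIN93G diet, diet-induced obese (DIO) mice ate a diet with 45% of its energy as fat for 10 weeks in all, and type 1 diabetes (T1D) mice ate the normal diet after repeated low doses of streptozotocin, which destroys the insulin-producing β-cells of the islets. Each state was housed in filtered air (AF) or in PM, which gave the groups NDC, DIOC and T1DC in AF and NDE, DIOE and T1DE in PM. Each group had 3 libraries per tissue, 36 in all. Effects of streptozotocin itself and of the diabetes it causes cannot be told apart in T1D mice, nor can those of the high-fat diet and of obesity in DIO mice. The labels number the replicates but tie no liver library to a lung library and do not say that each is a separate animal, so the p-values measure the spread between these libraries only.

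Values are the deposited FPKM, that is fragments scaled for transcript length and for the library's mapped total, whose depth is unknown. The sum of FPKM ranged from 520653 to 581171 in liver and from 500813 to 568059 in lung, and the tissue labels held: 8 hepatocyte markers summed to between 32405 and 68471 FPKM in every liver library and to at most 535 FPKM in lung, where 5 alveolar type 2 markers summed to 14791 FPKM or more. Differences were tested with limma on log2(FPKM + 1) over every gene that reached 1 FPKM in 3 or more of a tissue's libraries, with Benjamini-Hochberg adjustment over all of them. A gene was called changed when its adjusted p was under 0.05 and FPKM + 1 differed by over 1.5-fold. All 10 genes were tested among 10806 genes in liver. In lung, 8 were tested among 13973 genes, with Igfbp1 and Igfals left out at low values. Log2 differences below are of FPKM + 1, which understates the change of low genes. ND controls are shared by the T1D and DIO comparisons in the same air, so those comparisons are not independent. Where the libraries of 2 groups are said not to overlap, this describes 3 libraries a group. Such separation can arise without a true difference, and the share of all genes that show it was not computed.

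Some liver facts touch several results. Over all tested genes the median log2 difference was 0.16 in T1DC against NDC, 0.23 in T1DE against NDE and 0.35 in T1DE against DIOE, and it was at most 0.02 in size in those comparisons after median-ratio scaling between libraries, so a T1D difference reads against those shifts. The hepatocyte marker sum was 32405 to 42217 FPKM in the 6 T1D libraries and 40714 to 68471 FPKM in the other 12, and in bulk tissue fewer cells of a type and less RNA per cell cannot be told apart. Its part in the T1D differences was not tested. T1DC replicate 2 stood apart from its group: its nearest library was NDE replicate 1 (r = 0.986 across genes, against 0.958 to 0.981 with its own group). Its Scd1, a desaturase gene, was at 3109 FPKM, against 45.1 to 183 FPKM in the other 5 T1D libraries and 880 to 1917 FPKM in the 6 ND libraries. T1DC replicate 3 held the highest liver value of 5 of the 10 genes, Igf1, Igfbp1, Igfbp2, Socs2 and Cish. The share of all genes with their highest value in that library was not computed, so this is not read as a trait of the 10.

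Short stretches of the promoters are shown for the 3 genes that gave called differences in liver, because the known control of this axis acts there. The windows, from RefSeq on GRCm38.p6, run from 250 bases before to 50 bases after each annotated start, and 9 of the 10 genes had at least 1 window, 15 in all. They were searched on both strands for TTCNNNGAA, the palindromic core that STAT5 dimers bind, and for CAAAACA, part of the insulin response element read by FOXO1. TTCNNNGAA was found in 3 of these 15 windows, all of Cish or Igfals, and in 8.30% of the 32851 windows of all genes. CAAAACA was found in 1 of the 15, that of Igfbp1, and in 6.28% of all windows. A match is a string of letters and not a measured binding site. Each stretch is on the plus strand, which is the gene's own strand, with the matches in capitals:
Cish, chr9:107296654-107296683: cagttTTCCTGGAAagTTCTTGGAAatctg
Igfals, chr17:24877598-24877627: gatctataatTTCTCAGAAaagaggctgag
Igfals, second annotated start, chr17:24878163-24878192: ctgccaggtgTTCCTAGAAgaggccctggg
Igfbp1, chr11:7197668-7197697: gagctcacaagCAAAACAaacttattttga
The Cish stretch holds 2 copies of the STAT5 core, and the copies begin at 0 and 11 bases from the annotated start. In Igfals the core begins 236 bases before the first annotated start and 58 bases before the second. In Igfbp1 the FOXO1 element begins 108 bases before the start. The genes themselves lie at chr9:107296659-107302784 for Cish, chr17:24877844-24882011 for Igfals and chr11:7197787-7202546 for Igfbp1.

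In liver the axis did not move as a block. Igfbp1 was higher in T1D and in DIO mice in AF, and in T1D mice it was low again in PM. Cish, the immediate STAT5 target, was lowest in DIO mice in PM. In T1D mice in PM it was above the other PM groups and overlapped ND mice in AF. Igfals was lower in T1D than in ND mice in PM, while the Igf1 transcript itself stayed within a narrow range. The count of genes called among the 10 was 1 in T1DC against NDC (5.21% of all tested genes were called), 2 in T1DE against NDE (9.5%), 1 in DIOC against NDC (1.51%) and 0 in DIOE against NDE (0.999%). It was 0 in T1DC against DIOC (6.6%) and 2 in T1DE against DIOE (18.9%). For PM against AF it was 0 in ND (0.00925%), 0 in DIO (0%) and 1 in T1D mice (0.916%). Beside these background shares the counts of 0 to 2 in 10 are not read as a property of the group of genes, and each gene is described by its own values below. Where limma called none of the 10, the number at an unadjusted p under 0.05 was 4 in DIOE against NDE, 2 in T1DC against DIOC, 1 in NDE against NDC and 3 in DIOE against DIOC. In the tests of whether the PM difference in a disorder differed from that in ND mice, limma called none of the 10, with 2 at an unadjusted p under 0.05 for T1D (0.416% of all genes called) and 0 for DIO (0%). The share of all tested genes at an unadjusted p under 0.05 was not computed. The numbers at that threshold are therefore not read as a result about the 10 genes.

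**Figure D1:**
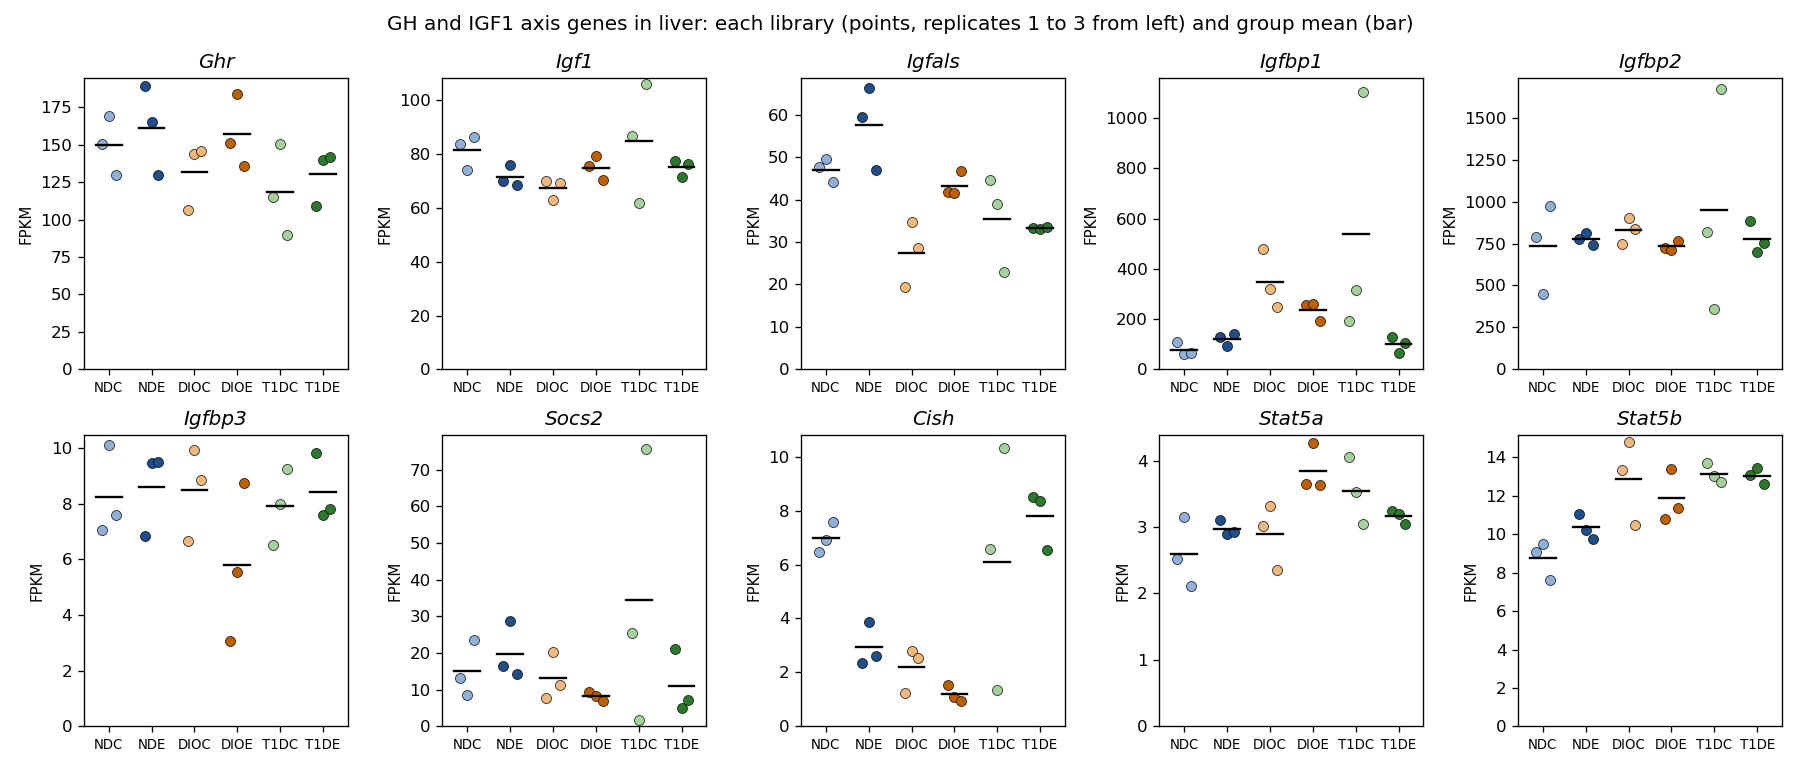
FPKM of the 10 genes in each of the 18 liver libraries, 1 panel per gene on its own scale, with points for the 3 libraries of each group and a bar for the group mean. T1DC replicate 3 reaches 1106 FPKM for Igfbp1 and 75.6 FPKM for Socs2, while the 3 DIOE libraries lie at or below 1.54 FPKM for Cish.

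The receptor transcript, Ghr, showed no called difference in liver. Its level ranged from 89.7 FPKM in T1DC replicate 3 to 189 FPKM in NDE replicate 1. Group means ran from 162 ± 29.9 FPKM (SD, n = 3) in NDE, through 157 ± 24.8 in DIOE, 150 ± 19.6 in NDC, 132 ± 21.99 in DIOC and 130 ± 18.2 in T1DE, to 118 ± 30.5 in T1DC. Neighbours in this order overlapped in their libraries. The T1DC group differed from NDC by -0.36 on the log2 scale, with a 95% interval from -0.77 to 0.05 and a limma adjusted p of 0.208. After median-ratio scaling Ghr was 0.71 lower on the log2 scale in T1DE than in DIOE and was called (limma adjusted p = 0.0235), where the deposited scale gave -0.26 (adjusted p = 0.238).

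Stat5b, the hepatic STAT5 isoform through which GH acts in male liver, was higher in both disorders in AF by less than the 1.5-fold threshold. The NDC libraries were at 9.1, 9.49 and 7.63 FPKM, the DIOC libraries at 13.4, 14.8 and 10.5 FPKM and the T1DC libraries at 13.7, 13.0 and 12.7 FPKM. No NDC library reached any library of the other AF groups. The log2 difference was 0.54 ± 0.11 (SE) in T1DC against NDC (limma adjusted p = 0.00865) and 0.50 ± 0.11 in DIOC against NDC (adjusted p = 0.0323), each from 3 libraries a group. Both lay just under the log2 value of a 1.5-fold change, so neither was called. The T1D difference passed it without NDC replicate 2 (0.60), and the DIO difference without DIOC replicate 3 (0.63). Read against the shift of all genes it shrank, since median-ratio scaling gave 0.36 in T1DC against NDC with an adjusted p of 0.0539. In PM the NDE libraries were at 11.1, 10.2 and 9.76 FPKM and the T1DE libraries at 13.1, 13.5 and 12.6 FPKM, a difference of 0.31 (adjusted p = 0.0501), or 0.03 after that scaling. The DIOE libraries, at 10.8, 13.4 and 11.4 FPKM, overlapped NDE (0.18, adjusted p = 0.41).

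Stat5a, the second STAT5 isoform and the next gene on the same stretch of chromosome 11, was low in liver, at 2.11 to 4.27 FPKM. The pair are close in sequence, so how the counting split shared reads between them is uncertain. Its highest group was DIOE, at 3.64, 4.27 and 3.63 FPKM, above all 3 NDE libraries, which were at 3.1, 2.9 and 2.92 FPKM. That difference of 0.28 on the log2 scale did not pass the test (limma adjusted p = 0.22). The difference of 0.34 in T1DC against NDC did not either (adjusted p = 0.067).

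Igf1, the hormone that liver releases into blood in response to GH, was among the steadiest of the 10 in liver, with a mean within-group SD of 0.18 on the log2 scale. Its libraries ranged from 62.0 FPKM in T1DC replicate 2 to 106 FPKM in T1DC replicate 3, so the lowest and the highest value both fell in the T1DC group. The other 16 libraries lay between 62.8 and 86.7 FPKM. The T1DC group was at 84.9 ± 22.1 FPKM and NDC at 81.4 ± 6.46 FPKM (SD, n = 3 each). The log2 difference was 0.03, with a 95% interval from -0.26 to 0.32 (limma adjusted p = 0.899). In PM, T1DE differed from NDE by 0.07, with an interval from -0.22 to 0.36 (adjusted p = 0.713). The sign of both depended on the scaling, since median-ratio scaling gave -0.16 and -0.22. DIOC, at 69.9, 62.8 and 69.2 FPKM, lay below all 3 NDC libraries, at 83.8, 74.1 and 86.3 FPKM. That difference was -0.27, with an interval from -0.56 to 0.02 (adjusted p = 0.361). T1DC was above DIOC by 0.30, with an interval from 0.01 to 0.59 that leaves out 0, but did not pass the test over all genes (adjusted p = 0.144).

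Igfals encodes the acid-labile subunit, which hepatocytes secrete and which keeps IGF1 in its large circulating complex. Its NDE libraries were at 59.5, 66.2 and 47.0 FPKM and its T1DE libraries at 33.3, 33.1 and 33.5 FPKM. All T1DE libraries lay below all NDE libraries. Igfals fell by 0.76 on the log2 scale in T1DE against NDE (95% interval from -1.20 to -0.31, limma adjusted p = 0.0149). The call was lost without NDE replicate 2 (-0.65, adjusted p = 0.0632) and was kept in the other 5 fits that left out 1 library. In AF the NDC libraries were at 47.6, 49.5 and 44.1 FPKM, the T1DC libraries at 44.5, 39.1 and 23.0 FPKM and the DIOC libraries at 19.3, 34.6 and 28.6 FPKM. DIOC lay wholly below NDC, by -0.79 with an interval from -1.23 to -0.35, yet the adjusted p was 0.0581, and it was called without DIOC replicate 2 (-0.97, adjusted p = 0.044). The neutrophil marker sum of 5 genes, none at 0, was 20.4 to 55.8 FPKM in the DIOC libraries and 7.02 to 9.5 FPKM in NDC, and its part in the DIOC values was not tested. T1DC against NDC gave -0.45 (adjusted p = 0.153), and T1DC against DIOC gave 0.34 (adjusted p = 0.264), which was called only without T1DC replicate 3 (0.62, adjusted p = 0.0332). The DIOE libraries, at 41.7, 41.5 and 46.7 FPKM, were all above the DIOC libraries, by 0.67 with an interval from 0.23 to 1.11 that did not pass the test over all genes (adjusted p = 0.222).

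Igfbp3, the main carrier of IGF1 in blood, is made in liver by nonparenchymal cells rather than by hepatocytes. It was low there, at 3.07 to 10.1 FPKM, and gave no called difference. The lowest values were in DIOE, at 3.07, 5.55 and 8.74 FPKM, which overlapped the NDE libraries at 6.82, 9.47 and 9.51 FPKM (log2 difference -0.58, limma adjusted p = 0.222). The sum of 7 markers of liver sinusoidal endothelium was 43.2 FPKM in DIOE replicate 1, the library with the lowest Igfbp3, and 57.0 FPKM in NDC replicate 3, against 114 to 155 FPKM in the other 16 libraries. Its part was not tested. T1DE was higher than DIOE by 0.55 (adjusted p = 0.0608), which was called without DIOE replicate 3 (0.86, adjusted p = 0.00608).

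Igfbp1 gave the widest called contrasts of the 10 genes. Its product binds IGF1 in the short term between meals, and insulin rapidly represses its transcription. The NDC libraries were at 107, 61.8 and 66.6 FPKM, the T1DC libraries at 194, 315 and 1106 FPKM and the DIOC libraries at 479, 318 and 249 FPKM. Every T1DC and DIOC library was above every NDC library. Igfbp1 rose 5.30-fold in T1DC against NDC, by 2.41 on the log2 scale (SE 0.46, 95% interval from 1.43 to 3.38, limma adjusted p = 0.00525). The call held in all 6 fits that left out 1 library, from 1.69 without T1DC replicate 3 to 2.94, with adjusted p from 0.00168 to 0.0295. In a fit on those 2 groups alone the adjusted p was 0.107.

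In DIOC against NDC Igfbp1 rose 4.37-fold, by 2.13 on the log2 scale (95% interval from 1.15 to 3.10, limma adjusted p = 0.0244). This call was less firm. It was lost without DIOC replicate 1 (adjusted p = 0.12), DIOC replicate 2 (0.0596), NDC replicate 2 (0.11) or NDC replicate 3 (0.0642), with log2 differences from 1.87 to 2.37 over the 6 such fits. T1DC and DIOC did not differ detectably, at 0.28 with an interval from -0.70 to 1.25 (adjusted p = 0.698). That interval still holds a change of more than 2-fold in T1DC over DIOC.

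PM exposure went with a low Igfbp1 in T1D mice. The T1DE libraries were at 129, 63.5 and 106 FPKM, all below the 3 T1DC libraries, whereas the NDE libraries were at 129, 91.4 and 139 FPKM and overlapped NDC. Igfbp1 fell by 2.08 on the log2 scale in T1DE against T1DC (95% interval from -3.06 to -1.11, limma adjusted p = 0.0288). The size of that fall leaned on 1 library, since it was -1.36 (adjusted p = 0.0514) without T1DC replicate 3, and the call was also lost without T1DE replicate 1 (0.0733), T1DE replicate 2 (0.138) or T1DE replicate 3 (0.086), and in a fit on both groups alone (0.323). The PM difference in T1D minus that in ND mice, a test of the contrast itself, was -2.71 (interval from -4.08 to -1.33) and did not pass (adjusted p = 0.0913). It was called without T1DC replicate 1 (-3.24, adjusted p = 0.0265).

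In DIO mice the PM libraries kept much of the higher Igfbp1, at 257, 259 and 191 FPKM, against 479, 318 and 249 FPKM in AF (-0.52, limma adjusted p = 0.607). DIOE lay wholly above NDE, by 0.98 with a 95% interval from 0.01 to 1.96, but did not pass the test (adjusted p = 0.267). Igfbp1 was lower in T1DE than in DIOE, by -1.28 (interval from -2.26 to -0.31, adjusted p = 0.0266). This call was lost without DIOE replicate 1 (adjusted p = 0.0728), DIOE replicate 2 (0.0674) or T1DE replicate 2 (-0.99, 0.108). T1DE and NDE did not differ detectably in Igfbp1, at -0.30 with an interval from -1.27 to 0.67 (adjusted p = 0.625). By group mean the order was T1DC at 539 ± 495 FPKM, DIOC at 349 ± 118, DIOE at 236 ± 38.6, NDE at 120 ± 25.0, T1DE at 99.6 ± 33.3 and NDC at 78.5 ± 24.9 (SD, n = 3 each), in which of the neighbours only DIOE and NDE did not overlap.

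Igfbp2, a carrier that both liver and lung make in quantity, was the most abundant of the 10 in liver, at a median of 772 FPKM. Its groups could not be told apart. The T1DC libraries alone spanned 817, 359 and 1669 FPKM, which covers all other 15 libraries, whose range was 450 to 973 FPKM. The 9 comparisons of 1 group with another gave log2 differences between -0.18 and 0.24, each with a 95% interval of 0.79 to either side.

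Socs2, a STAT5 target whose product limits GH signalling and whose loss causes overgrowth in mice, was the least steady of the 10, with a within-group SD of 1.16 on the log2 scale. Its T1DC libraries were at 25.6, 1.84 and 75.6 FPKM. These were the lowest and the highest of all 18 liver libraries in a single group. T1DC replicate 2, which stood apart across the transcriptome, was the low one, so T1DC against NDC was 0.27 with a 95% interval from -1.46 to 2.001 (limma adjusted p = 0.842). Without T1DC replicate 2 it was 1.60 and called (adjusted p = 0.0446), and the difference from DIOC was then 1.78 and called (adjusted p = 0.0299). Without T1DC replicate 3 the same differences turned to -0.78 and -0.60. The DIOE libraries, at 9.25, 8.36 and 6.99 FPKM, were all below the NDE libraries, at 16.4, 28.8 and 14.3 FPKM, by -1.12 on the log2 scale, which did not pass the test (adjusted p = 0.466).

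Cish, the most immediate feedback inhibitor that STAT5 induces, had group means that differed by state and by air, with no called difference between PM and AF. The AF libraries were at 6.47, 6.92 and 7.57 FPKM in NDC, 1.22, 2.79 and 2.54 FPKM in DIOC, and 6.59, 1.36 and 10.3 FPKM in T1DC. The PM libraries were at 2.36, 3.87 and 2.62 FPKM in NDE, 1.54, 1.07 and 0.94 FPKM in DIOE, and 8.51, 8.34 and 6.55 FPKM in T1DE. Within ND mice, and between ND and DIO mice in either air, the libraries of the 2 groups did not overlap, but none of these contrasts was called.

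Cish passed the test between T1D mice in PM and the other PM groups. It rose 4.04-fold in T1DE against DIOE, by 2.01 on the log2 scale (SE 0.38, 95% interval from 1.20 to 2.82, limma adjusted p = 0.000853). That call held in all 6 fits without 1 library, at 1.93 to 2.13 with adjusted p from 0.0028 to 0.00467, against a background in which 18.9% of genes were called. It also rose in T1DE against NDE, by 1.17 (interval from 0.36 to 1.98, adjusted p = 0.0323). This second call depended on all but 1 of the libraries: it was lost without NDE replicate 1 (adjusted p = 0.0953), NDE replicate 3 (0.0747), T1DE replicate 1 (0.0927), T1DE replicate 2 (0.0781) or T1DE replicate 3 (0.0528), and after median-ratio scaling (0.119). The log2 differences over those fits were 1.06 to 1.33.

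The remaining Cish contrasts missed the threshold over all genes. DIOC was lower than NDC by -1.36 (95% interval from -2.17 to -0.55, limma adjusted p = 0.0719), which was called in a fit on those groups alone (0.00579). NDE was lower than NDC by -1.03 (interval from -1.84 to -0.22), with an adjusted p of 0.778 in a comparison that called 1 gene of 10806. DIOE was lower than NDE by -0.85 (adjusted p = 0.252). T1DC against DIOC gave 0.92 (adjusted p = 0.106), and without T1DC replicate 2, whose Cish of 1.36 FPKM lay among the DIO libraries, it gave 1.58 and was called (adjusted p = 0.000279). T1DC against NDC was -0.44 (adjusted p = 0.442), and it turned to 0.22 (adjusted p = 0.5) without T1DC replicate 2. The PM difference in T1D minus that in ND mice was 1.61 (interval from 0.46 to 2.75, adjusted p = 0.273).

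**Figure D2:**
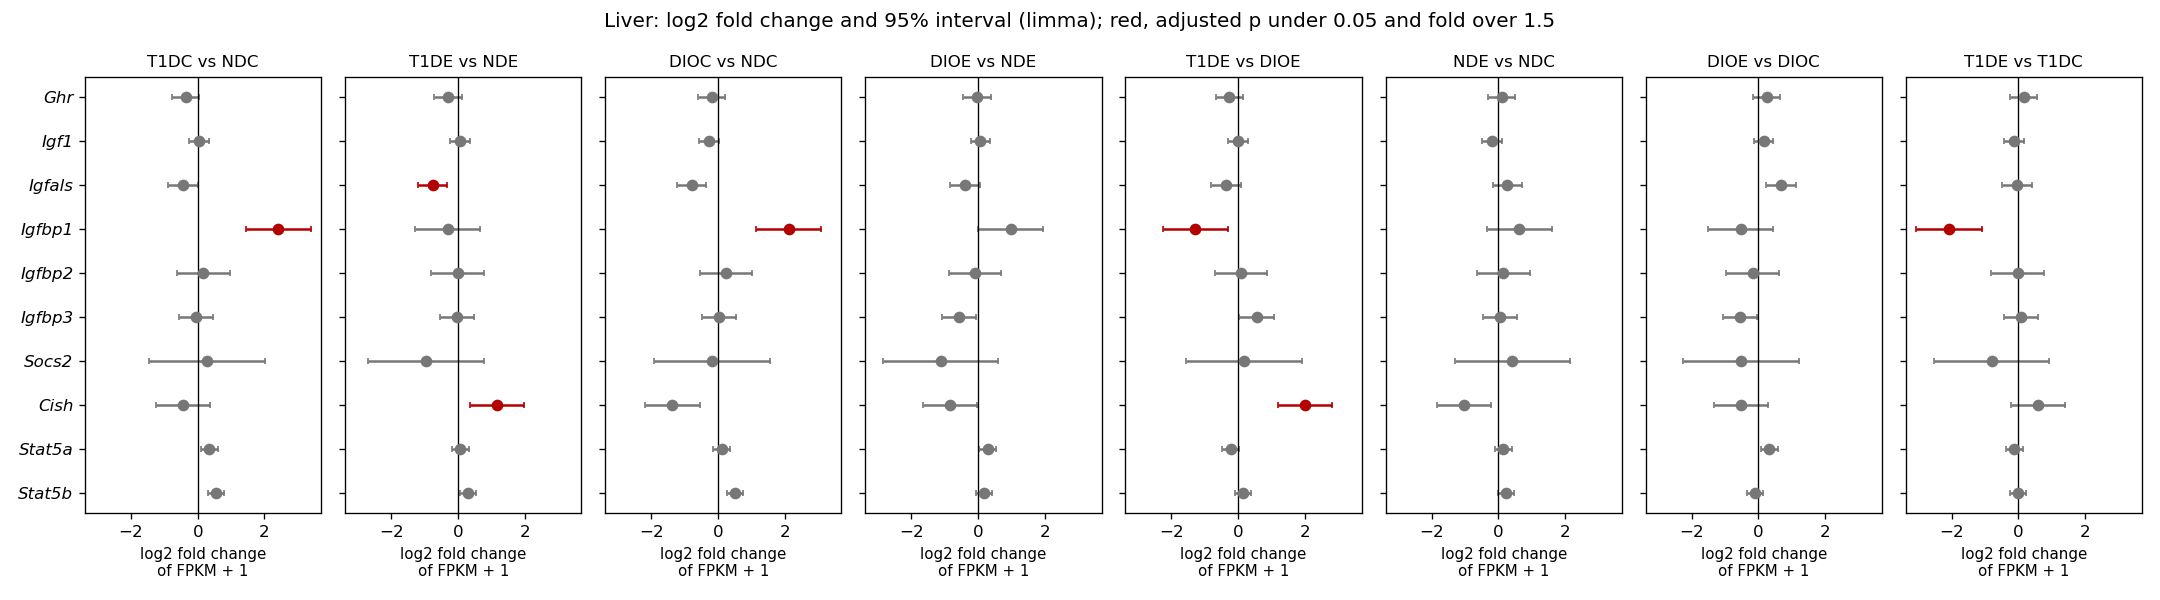
Log2 differences of FPKM + 1 in liver for the 10 genes, 1 panel per comparison, as points with 95% intervals from limma (3 libraries a group), with called differences in red. Igfbp1 stands at 2.41 in T1DC against NDC and 2.13 in DIOC against NDC, and Cish at 2.01 in T1DE against DIOE, while the Igf1 intervals include 0 in these 8 panels, which do not show T1DC against DIOC (0.01 to 0.59).

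Genes listed as male-biased or female-biased in liver were called in number in T1D livers, and few were in DIO livers. In male rodents GH is secreted in pulses, and pulsatile STAT5 activity holds a set of male-biased genes up and a set of female-biased genes down. Neither GH nor STAT5 activity was measured here, and the part of GH in these list counts was not tested. Of 20 male-biased genes listed, 19 were tested. In T1DC against NDC 8 fell and 0 rose (median log2 difference -1.92, against 0.16 over all genes), where 0.824% of all tested genes were called lower. In T1DE against NDE 11 fell and 0 rose (median -1.40, against 0.23), where 1.26% were called lower. Of those 19 genes, 3 did not pass the filter on low values in the T1D libraries alone. They could hardly have been seen to rise, and they gave 0 of the 8 falls in T1DC and 1 of the 11 in T1DE. Of 32 female-biased genes listed, 25 were tested, of which 13 rose and 0 fell in T1DC against NDC and 15 rose and 0 fell in T1DE against NDE, where 4.39% and 8.25% of all genes were called higher. However, 11 of those 25 passed the filter on low values only with the T1D libraries and could hardly have been seen to fall. Of the 14 that passed it in the ND and DIO libraries, 5 rose in T1DC against NDC and 6 in T1DE against NDE, and 0 fell in either. In DIOC against NDC 0 male-biased genes were called, with a median of -0.25, and of the female-biased genes only the P450 gene Cyp2c40 was called, which fell by 2.16. In DIOE against NDE 0 of either list were called.

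The named examples are among the genes of each list with the smallest limma p in T1DC against NDC, so they need not be typical of it. Serpina1e, a male-biased member of the α1-antitrypsin cluster, was at 6961, 6034 and 7996 FPKM in NDC and at 86.5, 906 and 22.3 FPKM in T1DC (log2 difference -5.82, limma adjusted p = 0.000455). Slco1a1, an organic anion uptake transporter, was at 109, 75.6 and 111 FPKM in NDC and at 5.89, 70.7 and 1.08 FPKM in T1DC (-3.28, adjusted p = 0.0193). In both genes T1DC replicate 2 lay far above the other T1DC libraries. On the female-biased side Fmo1, a flavin monooxygenase, was at 70.0, 78.8 and 61.3 FPKM in NDC and at 139, 93.2 and 128 FPKM in T1DC (0.76, adjusted p = 0.00368). Gstt3, a glutathione transferase, was at 14.5, 35.9 and 12.0 FPKM in NDC and at 79.7, 34.6 and 118 FPKM in T1DC (1.84, adjusted p = 0.0101). Cyp2a4, a steroid hydroxylase gene, was at 0.55 FPKM or less in NDC and at 57.3, 1.05 and 35.6 FPKM in T1DC, and passed the filter only through the T1D libraries. Reads of Cyp2a4, of the major urinary protein genes and of the Gstp genes may be shared with near-identical copies, so their own levels are uncertain.

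The counts were higher without T1DC replicate 2. Then 14 male-biased genes fell (median -2.71) and 17 female-biased genes rose in T1DC against NDC, where 1.71% of all genes were called lower and 8.21% higher. The sum of the 20 male-biased genes, tested or not, was 3938, 11429 and 2062 FPKM in T1DC and 3082, 5719 and 5427 FPKM in T1DE, against 16827 to 34082 FPKM in the 12 ND and DIO libraries. The sum of the 31 female-biased genes in the files was 1930, 404 and 2132 FPKM in T1DC and 1055, 1001 and 1266 FPKM in T1DE, against 240 to 534 FPKM in the others. T1DC replicate 2 was thus the 1 T1D library inside the ND and DIO range for the female-biased sum. Under median-ratio scaling 8 male-biased genes fell and 8 female-biased genes rose in T1DC against NDC, and 9 fell and 11 rose in T1DE against NDE, with 0 in the opposite direction. Of all genes that scaling called 1.48% lower and 1.93% higher in the first comparison, and 2.9% lower and 2.82% higher in the second. The female-biased genes tested in these repeats still include those that passed the filter on low values only with the T1D libraries. Those could hardly have been seen to fall. Neither the rises nor the falls of male-biased genes in these repeats were split by that filter. The same T1D libraries had the lower hepatocyte marker sums given above, and other markers moved as well. In T1DE against NDE, 6 Kupffer cell markers summed to 243 to 293 FPKM against 104 to 196 FPKM, 8 stellate cell and fibroblast markers to 162 to 187 against 111 to 155 FPKM, 7 sinusoidal endothelium markers to 141 to 155 against 117 to 128 FPKM and 5 cholangiocyte markers to 30.6 to 35.1 against 14.3 to 23.1 FPKM. None of these markers was at 0 in any liver library. In T1DC against NDC those 4 sums overlapped. Their part in the list counts, and in the T1D differences of Igfals, Igfbp1 and Cish, was not tested. In T1DE against T1DC only Sult3a1, a sulfotransferase gene that was called higher (0.76), was called of both lists, in a comparison with 0.916% of all genes called. Sult3a1 was at 0 FPKM in at least 1 liver library, and which libraries brought it through the filter on low values was not split out.

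**Figure D3:**
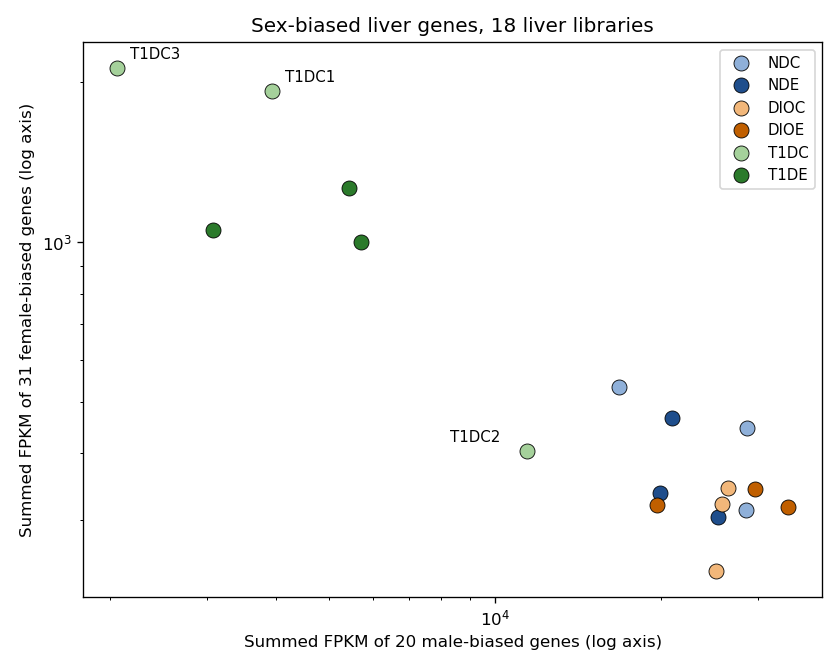
Summed FPKM of the 20 male-biased and the 31 female-biased genes (both log axes) in each of the 18 liver libraries, coloured by group. The other 5 T1D libraries lie apart from the ND and DIO libraries, with female-biased sums of 1001 FPKM or more, and T1DC replicate 2 lies below the ND and DIO range for the male-biased sum, at 11429 FPKM, and inside it for the female-biased sum, at 404 FPKM.

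Few other genes of the pathway were called in liver. Of all tested genes 5.21% were called in T1DC against NDC, 9.5% in T1DE against NDE and 1.51% in DIOC against NDC. Among 17 tested genes of GH receptor signalling, which include the kinases, phosphatases, other SOCS proteins and the transcription factors that act with STAT5, only Socs3 rose in T1DC against NDC (1.39, limma adjusted p = 0.0406), at 6.72, 3.96 and 14.1 FPKM against 2.06, 2.28 and 2.18 FPKM. Socs3 encodes a feedback inhibitor best known for cytokine signalling. Only Bcl6, a repressor that opposes STAT5, was called in T1DE against NDE, where it fell by 1.36 (adjusted p = 0.0315). It was chosen for mention after its values were seen. In DIOC against NDC only Onecut1, which encodes the hepatic factor HNF6, was called. It was at 0.68, 1.2 and 1 FPKM in DIOC and at 10.5, 6.75 and 10.1 FPKM in NDC and fell by 2.35 (adjusted p = 0.00679).

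Among 10 tested genes of the IGF and insulin receptors and their adaptors, Igf2 stood out by its values in T1D livers. Igf2, a fetal growth factor gene that adult mouse liver keeps nearly silent, was at 2.64, 0.7 and 1.64 FPKM in T1DC and at 1.38, 1.18 and 1.61 FPKM in T1DE, and at 0.45 FPKM or less in the other 12 libraries. It passed the filter on low values only through the T1D libraries, so it entered the test as a gene that had to be higher there, and its levels are given as a description. Irs2, the insulin receptor adaptor, was at 2.97, 3.41 and 2.31 FPKM in T1DE, below all T1DC libraries at 8.42, 13.0 and 20.3 FPKM and all NDE libraries at 6.43, 10.3 and 9.39 FPKM. Irs2 fell by 1.87 in T1DE against T1DC (limma adjusted p = 0.0253), the comparison in which Igfbp1 also fell, and by 1.30 in T1DE against NDE (adjusted p = 0.0228). Igf1r, Insr, Irs1 and the other genes of that list were not called in any ND comparison. Of 5 tested genes for other IGF binding proteins and their proteases, 0 were called in the 4 comparisons with ND.

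The liver lists tied to insulin gave mixed counts. Among 9 insulin-repressed genes, 1 rose in T1DC against NDC (Sesn3, a sestrin gene, by 0.74), and in T1DE against NDE Ppargc1a, a coactivator of gluconeogenesis, rose by 1.19 while Irs2 fell. In DIOC and DIOE against their ND controls 0 of the 9 were called. Among 6 insulin-induced genes, the lipogenic gene Fasn rose in T1DC against NDC (0.77) along with the glycolytic gene Pklr (0.93). Pklr was at 76.4 FPKM in T1DC replicate 2, against 39.8 to 57.2 FPKM in the other T1D libraries and 23.7 to 42.8 FPKM in the ND libraries. Fasn fell in DIOC against NDC (by 0.85) and in DIOE against NDE (by 0.96), and Scd1 fell by 3.57 in T1DE against NDE. Scd1 was not called in T1DC against NDC, where T1DC replicate 2 was at 3109 FPKM and the other T1DC libraries at 183 FPKM or less. Of 7 lipid genes that hepatic GH signalling holds down, the fatty acid transporter Cd36 rose in T1DC against NDC (1.65). In T1DE against NDE 3 rose, namely Cd36 (1.71), the lipoprotein lipase gene Lpl (0.86) and the fatty acid binding protein gene Fabp4 (1.59). In T1DC against NDC 3 of the 7 rose without T1DC replicate 2. Of all tested genes, 4.39% were called higher and 0.824% lower in T1DC against NDC, and 8.25% and 1.26% in T1DE against NDE. In the first comparison 8.21% were called higher without T1DC replicate 2. Median-ratio scaling called 1.93% and 2.82% higher. In DIOC and DIOE against their ND controls 1.51% and 0.999% were called in either direction. These small counts are not read as a property of the lists.

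The liver transcripts that most resembled the axis genes across the 18 libraries were found among 6315 genes with a mean of 5 FPKM or more. For Igfbp1 they were Ccng2 (Pearson r = 0.84), Cpeb4 (0.82) and H6pd (0.81), and r was 0.81, 0.77 and 0.88 without T1DC replicates 2 and 3. For Igf1 they were Hip1r, Zfp771 and Tmem50a (0.81, 0.78 and 0.78), and without those libraries 0.55, 0.83 and 0.42. Socs2 and Igfbp2 were each among the 3 genes most like the other (0.84), and both resembled Rapgef4 (0.88 with Socs2 and 0.83 with Igfbp2). Without T1DC replicates 2 and 3, which hold the lowest and the highest value of all 3 genes, r between Socs2 and Igfbp2 was 0.55. These are descriptions over 18 libraries that share their groups.

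Lung showed a different composition of the axis. Set side by side over 18 libraries a tissue, the medians were higher in liver for Igfals (41.6 against 0.655 FPKM, 63.5-fold), Igf1 (74.8 against 2.84 FPKM, 26.4-fold), Igfbp2 (772 against 162 FPKM, 4.75-fold) and Ghr (143 against 43.9 FPKM, 3.25-fold). They were higher in lung for Igfbp3 (52.5 against 7.90 FPKM, 6.65-fold), Cish (15.1 against 3.33 FPKM, 4.54-fold), Socs2 (52.9 against 12.2 FPKM, 4.33-fold), Stat5a (6.70 against 3.13 FPKM, 2.14-fold) and Stat5b (19.04 against 12.0 FPKM, 1.59-fold). The libraries of the tissues overlapped for Socs2 and Stat5a. FPKM is scaled within each library, so these ratios between tissues are relative to each tissue's own RNA and were not tested.

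Igfbp1, at a median of 165 FPKM in liver, was at 0 in 6 lung libraries and at 0.36 FPKM or less in 17 of 18. The exception was DIOC replicate 3, at 1.15 FPKM. The same library had the highest hepatocyte marker sum in lung, 535 FPKM, and DIOE replicate 1, second for both, was at 0.36 FPKM of Igfbp1 and 289 FPKM of hepatocyte markers, against 11.8 to 108 FPKM in the other 16. None of the 8 hepatocyte markers was at 0 in any lung library. Their part in the lung Igfbp1 values was not tested.

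None of the 8 tested genes was called in lung. The share of all genes called there was 0.107% in T1DC against NDC, 0.286% in T1DE against NDE, 0.107% in DIOC against NDC, 0.0286% in DIOE against NDE, 0.0286% in T1DC against DIOC and 0.544% in T1DE against DIOE. It was 0% for PM in ND mice, 0% in DIO mice and 0.165% in T1D mice. At an unadjusted p under 0.05, limma had 1 of the 8 in T1DC against NDC, 0 in T1DE against NDE, 1 each in DIOC against NDC and DIOE against NDE, 3 in T1DC against DIOC and 1 in T1DE against DIOE, and for PM 0, 0 and 1 in the same order of states. The PM difference in a disorder against that in ND mice was called for 0 of the 8, with 0 at an unadjusted p under 0.05, for both T1D (0.00716% of all genes called) and DIO (0%). No gene of the 8 pathway lists was called in lung in any comparison either. The share of all lung genes at an unadjusted p under 0.05 was not computed, so the numbers at that threshold are only a description.

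Ghr and Igfbp3 came nearest to the threshold in lung. Ghr, which lung expresses in several cell types, was at 34.8, 32.9 and 30.4 FPKM in T1DC, the lowest 3 of the 18 lung libraries. The DIOC libraries were at 52.9, 53.2 and 41.9 FPKM and the NDC libraries at 41.2, 45.1 and 37.2 FPKM. T1DC differed from DIOC by -0.57 (95% interval from -0.80 to -0.35, limma adjusted p = 0.089), which was called without DIOC replicate 3 (-0.69, adjusted p = 0.0372), and from NDC by -0.32 (adjusted p = 0.272). In PM the T1DE libraries were back at 39.2, 44.6 and 43.9 FPKM, 0.37 above T1DC (adjusted p = 0.163). DIOC replicate 3 stood apart in lung as well, with 161 FPKM in 6 adipocyte markers against 2212 and 2771 FPKM in its group, and the part of tissue mixture in the Ghr values was not tested. The adipocyte sums were 142 to 366 FPKM in T1DC and 57.4, 1624 and 762 FPKM in NDC.

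Igfbp3 was lowest in the lungs of DIO mice. The DIOE libraries were at 41.9, 27.7 and 31.6 FPKM and the DIOC libraries at 38.7, 39.1 and 44.9 FPKM, and every other lung library was at 46.1 FPKM or more. DIOE lay below NDE by -0.75 (95% interval from -1.18 to -0.32, limma adjusted p = 0.685) and DIOC below NDC by -0.41 (adjusted p = 0.465). T1DE lay above DIOE by 0.80 (interval from 0.37 to 1.24, adjusted p = 0.066) and was called after rescaling each library to the same sum (0.93, adjusted p = 0.0197). The lung fibroblast marker sum was 1317 to 2120 FPKM in DIO mice and 1754 to 2062 FPKM in ND mice. The sum of 7 sinusoidal endothelium markers was highest in T1DC replicate 3 (905 FPKM) and lowest in DIOE replicate 2 (435 FPKM). Those libraries also held the highest (96.5 FPKM) and the lowest (27.7 FPKM) lung Igfbp3. The sum of 4 lung endothelium markers was instead highest in DIOC replicate 3 (1142 FPKM) and lowest in T1DE replicate 2 (683 FPKM). The part of these sums was not tested.

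The other genes gave no called difference in lung. Igf1 was at 1.05 to 4.27 FPKM, with T1DC at 1.97, 2.16 and 1.69 FPKM, all below NDC at 2.36, 3.22 and 3.45 FPKM (-0.44, limma adjusted p = 0.538). Socs2 ranged from 41.2 to 69.7 FPKM, Cish from 11.6 to 20.4 FPKM, Stat5a from 4.14 to 9.11 FPKM (T1DC wholly below NDC, by -0.36, adjusted p = 0.524) and Stat5b from 15.96 to 23.6 FPKM. Igfbp2 ranged from 113 to 305 FPKM, highest in DIOC replicate 3.

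**Figure D4:**
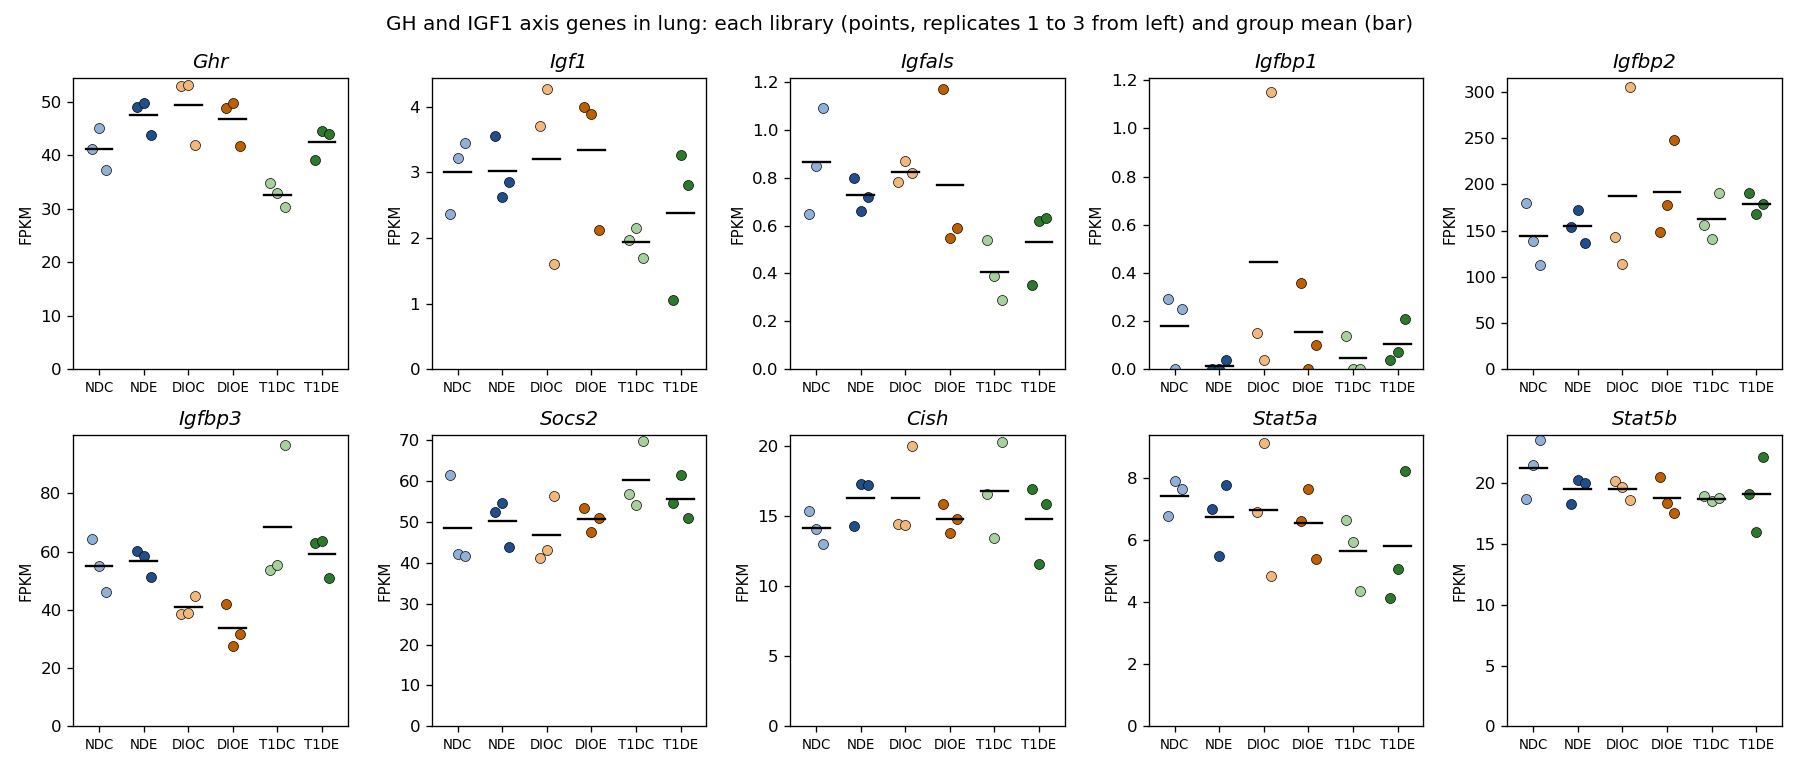
FPKM of the 10 genes in each of the 18 lung libraries, 1 panel per gene on its own scale, with points for the 3 libraries of each group and a bar for the group mean. The T1DC libraries are the lowest 3 for Ghr (30.4 to 34.8 FPKM), the 6 DIO libraries are the lowest for Igfbp3 (27.7 to 44.9 FPKM), and Igfbp1 stays at or below 1.15 FPKM.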

How the data were processed

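Poly(A) RNA of lung and liver was sequenced by the authors on a BGISEQ-500, filtered with SOAPnuke, aligned with Bowtie2 to GRCm38 transcripts and quantified with RSEM (no version is given in the sources used here). FPKM as deposited by the authors for 36 libraries, 1 file each, were used. The study tested with DEGseq, which needs counts, so limma 3.58.1 (R 4.3.3) was fitted per tissue on log2(FPKM + 1) over all 6 groups with a trend, for 11 comparisons. Values were read with Python 3.11.15, pandas 2.3.3 and numpy 2.4.6. FPKM is relative to each library's own RNA, so large shifts in abundant liver transcripts move all other values. The same code was first tested on simulated data in which 200 genes were changed.

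The 10 genes, 8 pathway lists, 17 marker lists and the rule for named genes (the 10, then up to 4 of each list by smallest p in liver T1DC against NDC and up to 2 in DIOC against NDC, and the 3 genes most like Igf1, Igfbp1, Igfbp2 and Socs2) were chosen with earlier results of these data known. Other genes named from the lists are the called ones. Each test was repeated with median-ratio scaling, with equal-sum scaling (TPM), with a pseudocount of 0.1, with all genes kept, with fits on the compared groups alone, with a replicate block, with no fold threshold and without each library in turn. Bcl6 and other genes outside the rule were chosen after their values were seen. List counts without liver T1DC replicate 2, under the other scalings and for genes that passed the filter in ND and DIO libraries were added after seeing the data. So were those for genes that did not pass it in T1D libraries.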

Additional observations from a re-analysis of the deposited data

How the results depend on the processing

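Counts of the 10 genes called changed under some settings. In DIOC against NDC the count of 1 became 2 in the fit on the compared groups alone, 0 with no filter and 2 with no fold threshold, and 0 to 2 with 1 library left out. In T1DC against NDC the count of 1 became 0 in the fit on the groups alone, and 2 with no fold threshold, with a pseudocount of 0.1 or with TPM, and 1 to 2 with 1 library left out. In T1DE against DIOE the count of 2 became 4 with median-ratio scaling (Ghr and Igfals added) and 1 with no filter, and 1 to 3 with 1 library left out. In T1DE against NDE the count of 2 became 1 with median-ratio scaling or no filter, and was 1 in each fit with 1 library left out (range 1 to 1). In T1DE against T1DC the count of 1 became 0 on the groups alone or with no filter, and 0 to 1 with 1 library left out. The counts of 0 ranged with 1 library left out from 0 to 2 in T1DC against DIOC, from 0 to 1 for the PM difference in T1D minus that in ND mice, and from 0 to 1 in lung T1DC against DIOC, and lung T1DE against DIOE had 1 with TPM. The Socs2 difference changed sign, ranging from -0.78 to 1.60 in T1DC against NDC (-0.05 without NDC replicate 2, -0.01 without T1DC replicate 1) and from -0.60 to 1.78 in T1DC against DIOC. The uncalled Cish difference in T1DC against NDC ranged from -0.91 to 0.22 in those fits. The cause of these changes was not tested, beyond the smaller number of libraries or genes that a setting leaves.

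Calls over all genes moved more. In liver T1DC against NDC 563 genes were called, 283 to 1071 with 1 library left out and 80 to 1052 under the other settings, and in T1DE against DIOE 2047 became 852 to 3488. The share of calls that were higher was 84.2% in T1DC against NDC and 56.6% after median-ratio scaling, 86.8% and 49.4% in T1DE against NDE, 87% and 66.1% in T1DC against DIOC, 92.7% and 49.6% in T1DE against DIOE, and 68.7% and 51.9% in T1DE against T1DC. With the replicate number as a block (replicate block) no count of the 10 genes changed, for example 2 in T1DE against DIOE with 2048 genes called. The numbers share no stated animal or batch: libraries of different groups with 1 number had a mean correlation of their deviations of 0.00758 in liver and 0.0408 in lung, and 7 and 6 of 18 libraries were closest to their own number. Depth is unknown for these FPKM, which limits most the genes near 1 FPKM, such as Cish in DIOE and Igf2.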
